A study of Mus musculus with 6 samples.

Results

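Long-chain fatty acids cannot cross the inner membrane of mitochondria by themselves. Carnitine palmitoyltransferase 1 on the outer membrane joins them to carnitine, the carrier encoded by Slc25a20 exchanges the acylcarnitine across the inner membrane, and carnitine palmitoyltransferase 2 on the inner side gives the acyl-CoA back. The acyl-CoA is then shortened in repeated rounds of beta-oxidation, whose electrons reach the respiratory chain through the dehydrogenase encoded by Etfdh. In the testis this pathway is shared by germ cells and somatic cells, and a separate enzyme, Cpt1b, known from muscle and heart, stands beside the liver form Cpt1a for the first step. The expression of 10 genes of the pathway (Cpt1a, Cpt1b, Slc25a20, Cpt2, Crat, Acadm, Acadl, Hadha, Hadhb and Etfdh) was examined in whole testis of male mice to find out whether a diet rich in fat and sugar changed their RNA. The genes were chosen by name, and every probe whose annotated gene symbol was one of the 10 was used, which gave 23 of the 45281 probes and 10 of the 19057 gene symbols on the array.

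The mice were C57Bl/6 males aged 4 months. WD mice (mice 3, 4 and 6 of the labels) were fed the high-fat diet, a Western-like food rich in butter and sucrose, and SD mice (mice 1, 2 and 5) the standard diet, with 1 Illumina MouseWG-6 v2.0 array of testis RNA for each mouse. According to the study, the arrayed mice were drawn at random after those with the strongest response to the diet had been left out, so both groups hold the remaining animals. Levels are given as log2 intensity after background correction and quantile normalisation, and differences as WD minus SD on that scale.

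Between 19693 and 19959 probes were detected in WD testes and between 19026 and 21309 in SD testes, where detected means a detection p under 0.05. Of the 23 probes of the pathway, 15, 19 and 18 were detected in WD mice 3, 4 and 6, against 17, 15 and 17 in SD mice 1, 2 and 5. WD mouse 3 stood apart in markers of macrophages, Leydig cells and Sertoli cells. Relative to the SD mean, the median of the 9 macrophage markers tested was 1.05, 0.26 and 0.09 in WD mice 3, 4 and 6, against 0.03, -0.01 and 0.02 in SD mice 1, 2 and 5. The median of the 9 Leydig cell markers tested was 0.65, -0.01 and -0.04 in the WD mice, against -0.01, 0.00 and 0.05 in the SD mice. For the 8 Sertoli cell markers tested it was 0.33, 0.12 and 0.00 in the WD mice, against -0.01, 0.04 and -0.01 in the SD mice. Endothelial markers did not set this mouse apart. The medians of the 4 tested were 0.34, 0.31 and 0.36 in WD mice 3, 4 and 6, against -0.26, 0.28 and 0.16 in SD mice 1, 2 and 5. In the 4 peritubular markers tested WD mouse 3 was the highest, but close to the other WD mice. Their medians were 0.37, 0.23 and 0.28 in the WD mice, against -2.5e-05, -0.07 and 0.17 in the SD mice. Values that moved most with WD mouse 3 are also given without it. In whole tissue, fewer cells of a type and less RNA per cell cannot be told apart.

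The testis transcribed most of this pathway at levels the array could read. A probe was tested if it was detected on at least 3 of the 6 arrays, whatever the diet, and 16 of the 23 probes met this, 14 of them on all 6 arrays. On the array as a whole, 19763 of 45281 probes met it. The 16 probes covered 8 of the 10 genes, against 11264 of the 19057 gene symbols on the array. Cpt1a and Hadha had no tested probe. The 16 tested probes all came from RefSeq transcripts, which supplied 19 of the 23 probes. None of the other 4, which came from cDNA clone records, was tested (1 each of Cpt1a and Hadha, and 2 of Etfdh). Over the whole array, 51% of the probes from RefSeq transcripts and 19.9% of those from such clone records were tested. An undetected probe therefore does not show that its gene is silent. The map of levels and detection shows each probe.

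**Figure D1:**
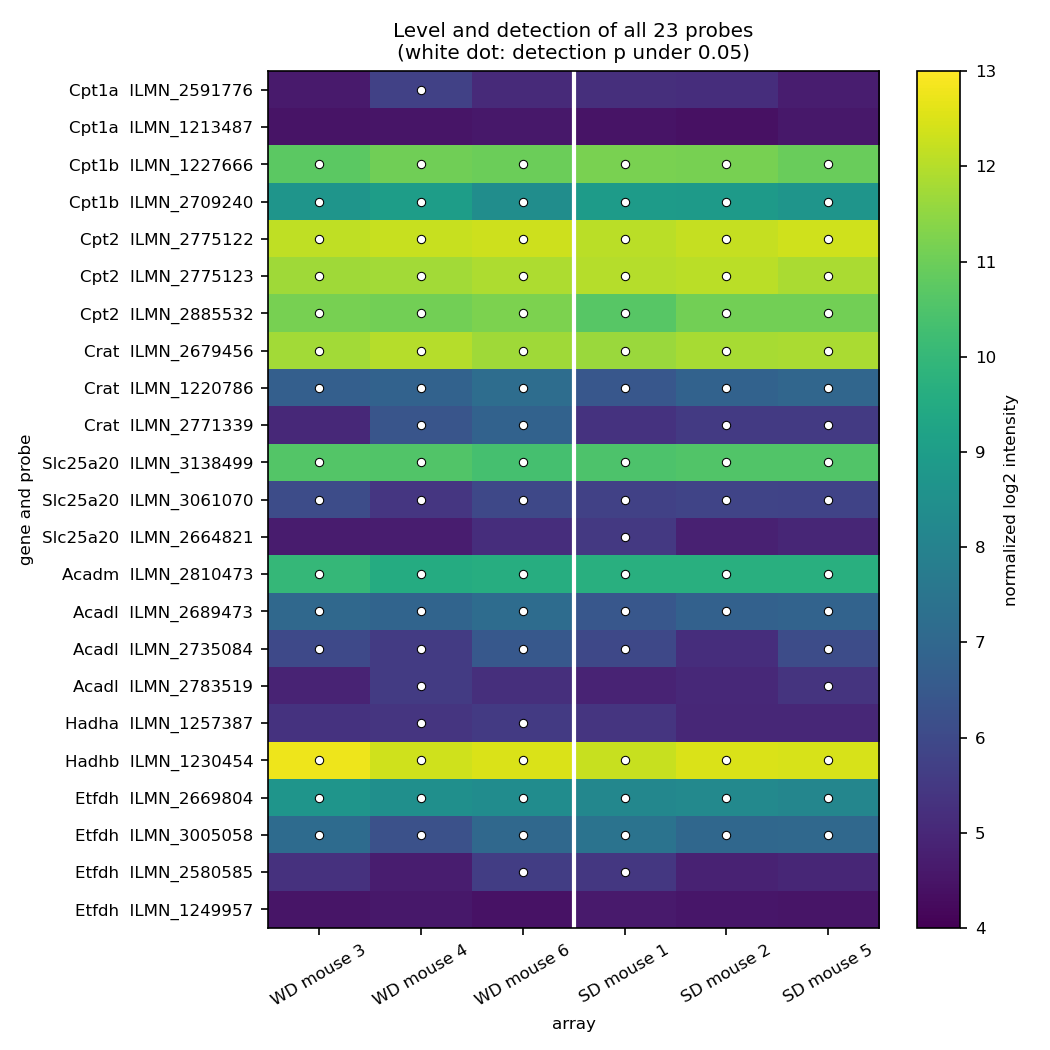
Level and detection of all 23 probes of the 10 genes on the 6 arrays, with the WD mice on the left and the SD mice on the right, 1 row for each probe. The colour is the normalised log2 intensity and a white dot is a detection p under 0.05. Both probes of Cpt1a and the single probe of Hadha were detected on at most 2 arrays, while the probes of Cpt1b and Hadhb were detected on all 6.

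None of the 8 genes tested passed the test between diets. In limma's moderated test, adjusted over all 19763 tested probes, 0 of the 16 probes passed an adjusted p of 0.05 (background 0%), and their adjusted p-values lay between 0.936 and 0.997. At an unadjusted p under 0.05, 1 of the 16 probes (6.25%) was called, against 5.13% of all tested probes. That probe belonged to Etfdh. The values of WD and SD mice did not overlap for 2 of the 16 probes, against 10.2% of all tested probes. Both were higher in WD mice, against 5.17% of all probes in that direction, and for 0 of 16 in the other direction, against 4.98%. The 2 probes are 12.5% of the 16, close to the share over the whole array. A difference of at least 1.5-fold was measured for 1 probe, against 1.64% of all probes. The values were higher in WD testes for 11 of the 16 probes and lower for 5, while 49.8% of all tested probes were higher and 50.2% lower. This count was 8 of 16 with median scaling and with the authors' deposited values, and also without SD mouse 1. The precision was limited by the number of mice. The median half-width of the 95% interval over the 16 probes was 0.36, a factor of 1.28, and the widest was 0.92, a factor of 1.89. After adjustment over all tested probes the threshold is stricter than these intervals, so larger changes than these could also have gone uncalled.

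**Figure D2:**
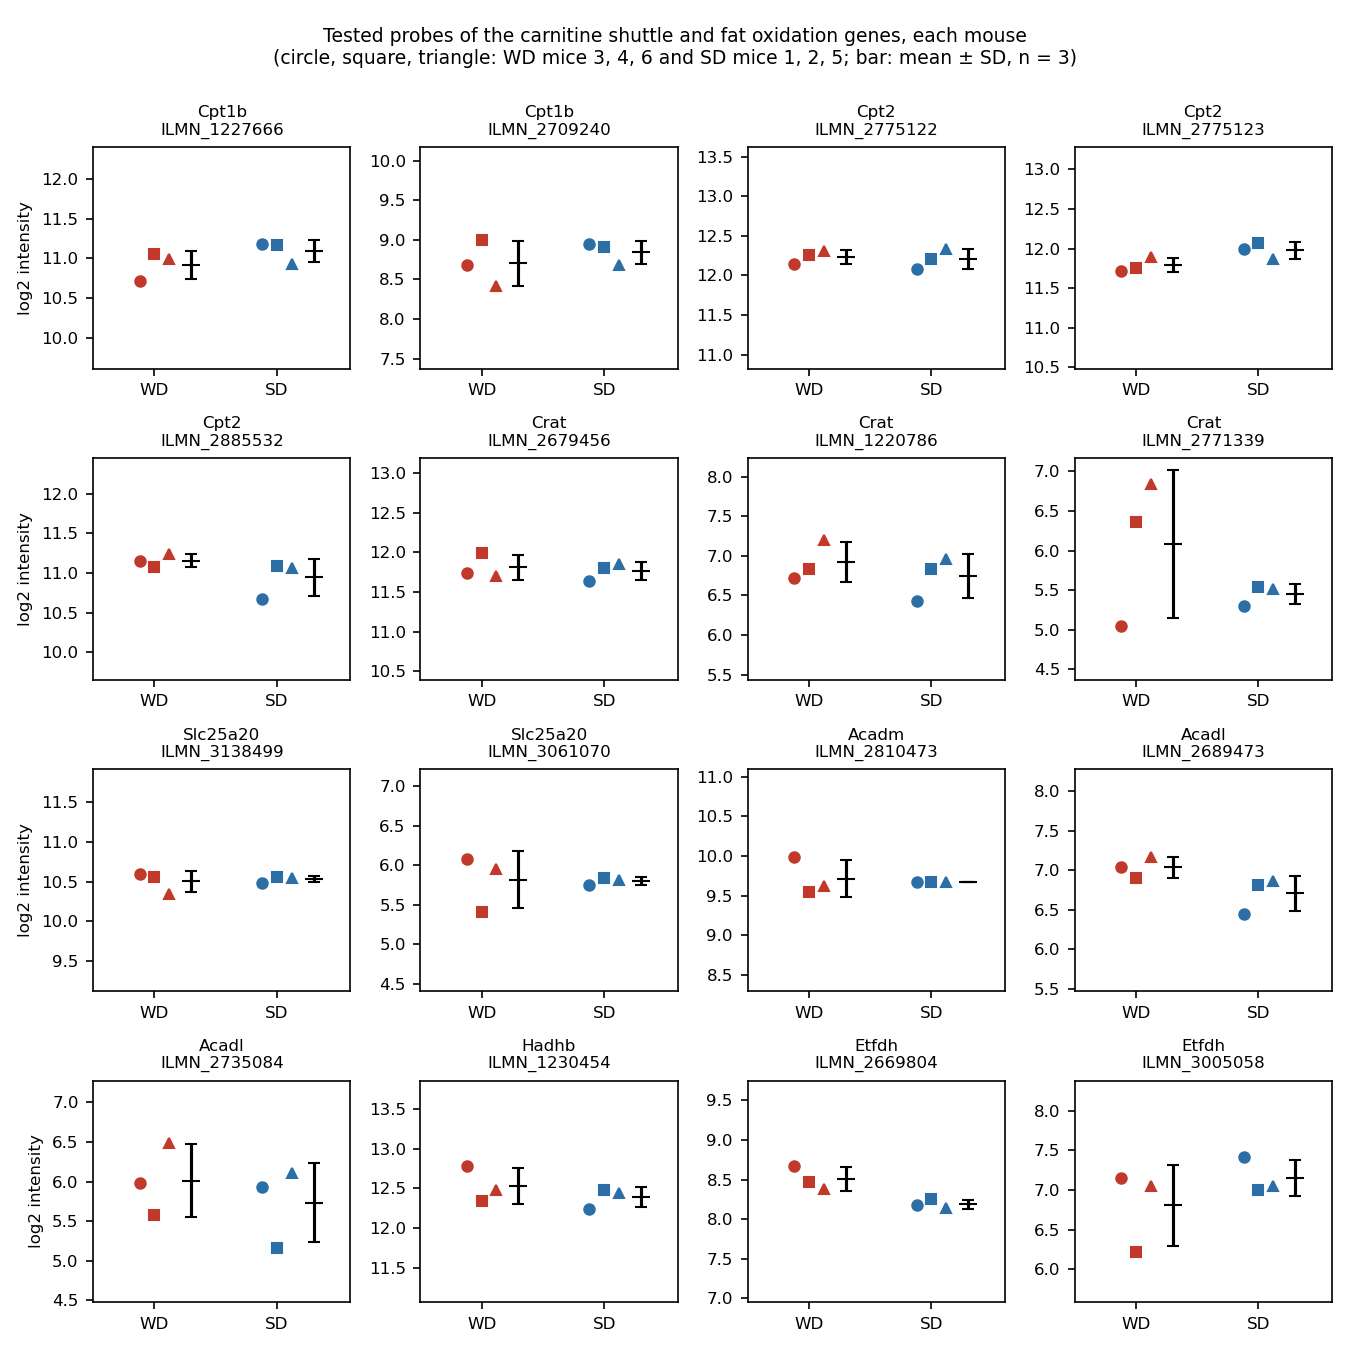
Log2 intensity of each of the 16 tested probes in each mouse, with WD mice (red) left of SD mice (blue), and the mean ± standard deviation of 3 mice beside the points. Each panel has its own axis of equal height, since levels of different probes cannot be compared. The groups overlapped in all panels but those of Acadl ILMN_2689473 and Etfdh ILMN_2669804.

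The first step of the shuttle was represented by Cpt1b. Its brighter probe, ILMN_1227666, read 10.72, 11.05 and 10.99 in WD mice 3, 4 and 6, against 11.18, 11.16 and 10.93 in SD mice 1, 2 and 5. The groups overlapped, with WD mouse 3 the lowest and SD mouse 5 among the WD values. The means were 10.92 ± 0.18 in WD testes and 11.09 ± 0.14 in SD testes (standard deviation, 3 mice each), a difference of -0.17 with a 95% interval from -0.51 to 0.17 (limma, adjusted p = 0.949). This interval runs from a factor of 0.701 to 1.12. The second probe, ILMN_2709240, read 8.69, 8.996 and 8.42 in WD mice, against 8.95, 8.91 and 8.68 in SD mice, a difference of -0.14 (interval -0.55 to 0.26, limma adjusted p = 0.965). Both probes of Cpt1b had lower means in WD mice, within the spread of the mice, and single mice set the size. Without WD mouse 3 the difference of the brighter probe was -0.07. That of the second was -0.0027 without WD mouse 6 and -0.29 without WD mouse 4.

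Cpt1a, the form that dominates in liver, was at the edge of detection. Its RefSeq probe, ILMN_2591776, read 4.65, 5.75 and 5.08 in WD mice, against 5.22, 5.19 and 4.73 in SD mice, and only WD mouse 4 was above the detection limit. The other probe, ILMN_1213487, from a clone record, was detected on 0 of 6 arrays and lay between 4.42 and 4.59. Neither probe was well above background in SD testes, and no fold is given for them. Cpt1c, the form known from brain, was tested with 1 probe, which read 7.13, 7.23 and 7.26 in WD mice, against 7.45, 7.27 and 7.37 in SD mice. All 3 WD values were below the SD values, but the difference of -0.16 (interval -0.45 to 0.13) did not pass the test (limma adjusted p = 0.942).

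The inner membrane carrier and Cpt2 were detected in every testis, and none of their tested probes passed the test between diets. For Slc25a20, the carnitine-acylcarnitine carrier, probe ILMN_3138499 read 10.60, 10.56 and 10.35 in WD mice, against 10.48, 10.56 and 10.55 in SD mice. The difference was -0.03 (interval -0.33 to 0.27, limma adjusted p = 0.987), so a change of more than a factor of 1.21 upwards or 0.796 downwards lay outside the interval. Its dimmer probe ILMN_3061070 differed by 0.01 (interval -0.42 to 0.44), and the remaining one, ILMN_2664821, was detected in SD mouse 1 alone and not tested. The sign of both tested probes changed with the mice included.

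Cpt2 had the only set of 3 probes that were all detected on all 6 arrays. The brightest, ILMN_2775122, read 12.14, 12.26 and 12.31 in WD mice, against 12.08, 12.21 and 12.33 in SD mice. WD and SD mice were interleaved, and the difference was 0.03 (interval -0.28 to 0.33, limma adjusted p = 0.989). The next probe, ILMN_2775123, read 11.72, 11.76 and 11.89 in WD mice, against 12.00, 12.08 and 11.87 in SD mice. It was lower in WD mice by a mean of 0.19 on the log2 scale (difference -0.19, interval -0.49 to 0.11, limma adjusted p = 0.936), with only SD mouse 5 among the WD values. The dimmest, ILMN_2885532, read 11.15, 11.08 and 11.24 in WD mice, against 10.67, 11.09 and 11.07 in SD mice, and differed the other way (0.21, interval -0.14 to 0.57, limma adjusted p = 0.939). SD mouse 1 had the lowest value of this probe. The 3 probes of Cpt2 therefore did not give 1 direction.

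Crat encodes carnitine acetyltransferase, which moves acetyl groups between carnitine and CoA and so buffers the mitochondrial acetyl-CoA. Its brightest probe, ILMN_2679456, read 11.75, 11.99 and 11.70 in WD mice, against 11.64, 11.81 and 11.86 in SD mice, and the groups overlapped (difference 0.05, interval -0.28 to 0.37, limma adjusted p = 0.985). The second probe, ILMN_1220786, differed by 0.17 (interval -0.27 to 0.61), by 0.018 without SD mouse 1, by 0.033 without WD mouse 6 and by 0.28 without SD mouse 5. The dimmest, ILMN_2771339, was the 1 probe of the pathway past 1.5-fold. It read 5.04, 6.36 and 6.84 in WD mice, against 5.30, 5.54 and 5.52 in SD mice, and was detected in 2 WD and 2 SD mice. WD mice 4 and 6 lay above all SD mice and WD mouse 3 below them. The difference was 0.63, or 1.55-fold, with an interval from -0.29 to 1.55 (limma adjusted p = 0.936). It was 1.15 without WD mouse 3 (limma adjusted p = 0.9997) and 0.25 without WD mouse 6, so single mice set its size. Without background correction it was 0.22.

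The acyl-CoA dehydrogenases open each round of beta-oxidation by inserting a double bond. Acadm, which handles medium chains, had 1 probe, ILMN_2810473, with 9.98, 9.54 and 9.62 in WD mice, against 9.67, 9.67 and 9.68 in SD mice. The SD values were nearly identical, and WD mice lay on both sides of them. The difference was 0.04 (interval -0.31 to 0.39, limma adjusted p = 0.987), and -0.09 without WD mouse 3, which had the highest value.

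Acadl, the long-chain dehydrogenase, was 1 of the 2 genes with a probe whose groups did not overlap. Probe ILMN_2689473 read 7.04, 6.91 and 7.17 in WD mice, against 6.45, 6.81 and 6.86 in SD mice. The lowest WD mouse was just above the highest SD mouse. The mean was 7.04 ± 0.13 in WD testes and 6.71 ± 0.22 in SD testes (standard deviation, 3 mice each), which gave a difference of 0.33, or 1.26-fold, with an interval from -0.03 to 0.69 (limma adjusted p = 0.936). Leaving out WD mouse 3 did not change this value (0.33), while leaving out SD mouse 1, the lowest, gave 0.20. Without background correction the difference was 0.15. A second probe, ILMN_2735084, read 5.98, 5.58 and 6.48 in WD mice, against 5.94, 5.16 and 6.11 in SD mice, with overlap (difference 0.28, interval -0.41 to 0.97). The remaining probe, ILMN_2783519, was detected in WD mouse 4 and SD mouse 5 and was not tested.

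The trifunctional protein of the inner membrane carries out the later steps for long chains. Its alpha subunit, with the hydratase and the 3-hydroxyacyl-CoA dehydrogenase, is encoded by Hadha, and its beta subunit, the thiolase, by Hadhb. In RefSeq both genes start 273 bases apart on mouse chromosome 5 and are transcribed away from each other. The windows from 250 bases before to 50 bases after the start overlap by 228 of their 300 bases, so they are printed together here to show how close the starts lie, each 5′ to 3′ on the strand of its gene. Capitals mark GC boxes (GGGCGG on either strand), of which the Hadhb window holds 4 and the Hadha window 1.
Hadha, GRCm38.p6 chr5:30154931-30155230, minus strand: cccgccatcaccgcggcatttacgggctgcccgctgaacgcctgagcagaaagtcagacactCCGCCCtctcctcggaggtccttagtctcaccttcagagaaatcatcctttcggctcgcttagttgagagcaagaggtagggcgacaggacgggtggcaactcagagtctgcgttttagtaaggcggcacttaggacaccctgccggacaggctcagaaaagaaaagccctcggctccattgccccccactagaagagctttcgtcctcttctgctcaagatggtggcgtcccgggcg
Hadhb, GRCm38.p6 chr5:30155003-30155302, plus strand: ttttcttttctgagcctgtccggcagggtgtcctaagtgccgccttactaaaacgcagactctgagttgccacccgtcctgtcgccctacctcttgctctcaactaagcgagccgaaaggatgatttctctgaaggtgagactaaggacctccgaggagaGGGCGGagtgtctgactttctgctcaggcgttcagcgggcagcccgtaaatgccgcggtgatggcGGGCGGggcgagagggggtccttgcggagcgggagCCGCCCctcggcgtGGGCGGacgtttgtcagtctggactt

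Of the 2 subunits only Hadhb had a tested probe. This probe, ILMN_1230454, was detected in every testis and read 12.78, 12.34 and 12.48 in WD mice, against 12.24, 12.48 and 12.44 in SD mice. WD mouse 3 had the highest value and the other WD mice lay among the SD mice. The mean was 12.53 ± 0.23 in WD testes and 12.39 ± 0.13 in SD testes (standard deviation, 3 mice each), and the difference was 0.14 (interval -0.22 to 0.50, limma adjusted p = 0.965). It was 0.02 without WD mouse 3. The only probe of Hadha, ILMN_1257387, comes from a clone record and read 5.32, 5.37 and 5.51 in WD mice, against 5.37, 4.99 and 5.02 in SD mice. It was detected in WD mice 4 and 6 and in 0 of 3 SD mice. Its measured means were 5.40 in WD testes and 5.13 in SD testes. Where the SD arrays were raised to the weakest signal that counted as detected on them, if the probe lay under it, the mean of the WD mice was at least 1.04-fold higher. In this bound WD mouse 3, also undetected, kept its measured value. WD mouse 4 and SD mouse 1 both read 5.37, on either side of the cut (detection p 0.040 and 0.051), and the diets overlapped. The counts of detection and the fold therefore depend on the cut. The bound is an estimate from means with no sampling error, and the probe was not tested.

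Etfdh, the electron-transfer-flavoprotein dehydrogenase, passes the electrons of the acyl-CoA dehydrogenases to ubiquinone. Among the windows of 8 of the 10 genes, it was the single one with an exact match to the palindromic motif of the nuclear respiratory factor NRF1, which occurred in 1.0% of all 32851 RefSeq promoter windows of the same length on either strand. The window is printed because this gene gave the smallest p. In order, its capitals mark a CCAAT box, the NRF1 motif and a GC box.
Etfdh, GRCm38.p6 chr3:79628718-79629017, minus strand: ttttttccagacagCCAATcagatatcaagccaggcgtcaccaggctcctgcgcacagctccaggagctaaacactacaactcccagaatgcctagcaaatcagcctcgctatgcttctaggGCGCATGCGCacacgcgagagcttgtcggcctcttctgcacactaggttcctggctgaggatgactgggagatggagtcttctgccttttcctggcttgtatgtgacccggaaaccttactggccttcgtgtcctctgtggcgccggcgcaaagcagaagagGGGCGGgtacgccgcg

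Etfdh gave the smallest p of the pathway. Probe ILMN_2669804 read 8.68, 8.47 and 8.38 in WD mice, against 8.18, 8.25 and 8.14 in SD mice. All WD mice lay above all SD mice. The mean was 8.51 ± 0.15 in WD testes and 8.19 ± 0.06 in SD testes (standard deviation, 3 mice each), a difference of 0.32, or 1.25-fold, with an interval from 0.01 to 0.63 (limma, unadjusted p = 0.0442 and adjusted p = 0.936). WD mouse 3 had the highest value, and without it the difference was 0.24 (limma adjusted p = 0.9997). The second tested probe of the gene, ILMN_3005058, pointed the other way. It read 7.15, 6.22 and 7.05 in WD mice, against 7.42, 6.998 and 7.05 in SD mice, a difference of -0.35 (interval -0.93 to 0.24, limma adjusted p = 0.941), which was -0.05 without WD mouse 4, the lowest value. The mean of both probes differed by -0.01. The 2 clone-record probes of Etfdh were not tested, since ILMN_2580585 was detected in WD mouse 6 and SD mouse 1 and ILMN_1249957 in 0 of 6 mice.

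**Figure D3:**
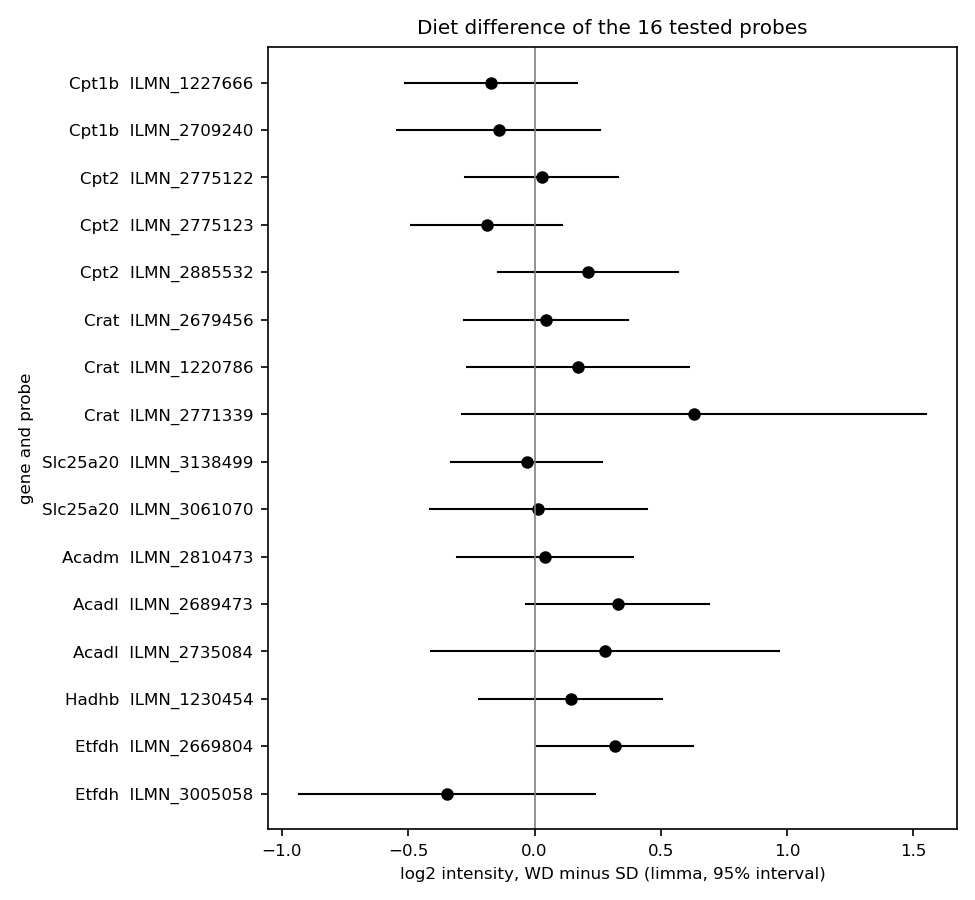
Difference of each tested probe between diets (log2, WD minus SD) with its 95% interval from limma, for the 16 probes. Of the 16 intervals 15 span 0, and that of Etfdh ILMN_2669804 runs from 0.01 to 0.63.

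Among the 8 members with an entry in the promoter table, 7 had at least 1 GC box (GGGCGG), which was present in 35.7% of all windows. CCAAT was found in 2 of 8 (Cpt1a and Etfdh; 37.4% of all windows), the nuclear receptor half-site AGGTCA in 2 of 8 (Cpt1a and Acadm; 16.3%) and the cAMP response element TGACGTCA in 0 of 8 (1.8%). Both strands were searched. Since the Hadha and Hadhb windows overlap, they share some of these letters. These matches describe the sequence alone. Cpt1b and Crat are named without a sequence.

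Probes of the same gene were then set against each other, since those tested for a gene here come from 1 RefSeq transcript record. The 6 genes with at least 2 tested probes formed 10 pairs. The diet differences had the same sign in 6 of the 10 pairs, against 55.1% of the 7552 pairs of the whole array. A comparison chosen after the data were seen took the difference between both probes in each mouse and fitted it with limma over all pairs. Of the 10 pairs, 0 passed an adjusted p of 0.05 (background 0%), 1 had an unadjusted p under 0.05 (background 5.06%), and 2 did not overlap between diets (background 10.1%). The first was Etfdh, where ILMN_2669804 exceeded ILMN_3005058 by 1.53, 2.25 and 1.33 in WD mice, against 0.76, 1.26 and 1.09 in SD mice. The gap was wider in WD mice by 0.66 (interval 0.06 to 1.27, limma, unadjusted p = 0.0341 and adjusted p = 0.974), and by 0.39 without WD mouse 4. The second was Cpt2, where ILMN_2775123 exceeded ILMN_2885532 by 0.57, 0.68 and 0.65 in WD mice, against 1.33, 0.98 and 0.80 in SD mice. The gap was narrower in WD mice (difference -0.40, interval -0.85 to 0.05, limma adjusted p = 0.977), with a value of -0.26 without SD mouse 1. Whether probes of 1 gene read different transcripts was not tested.

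**Figure D4:**
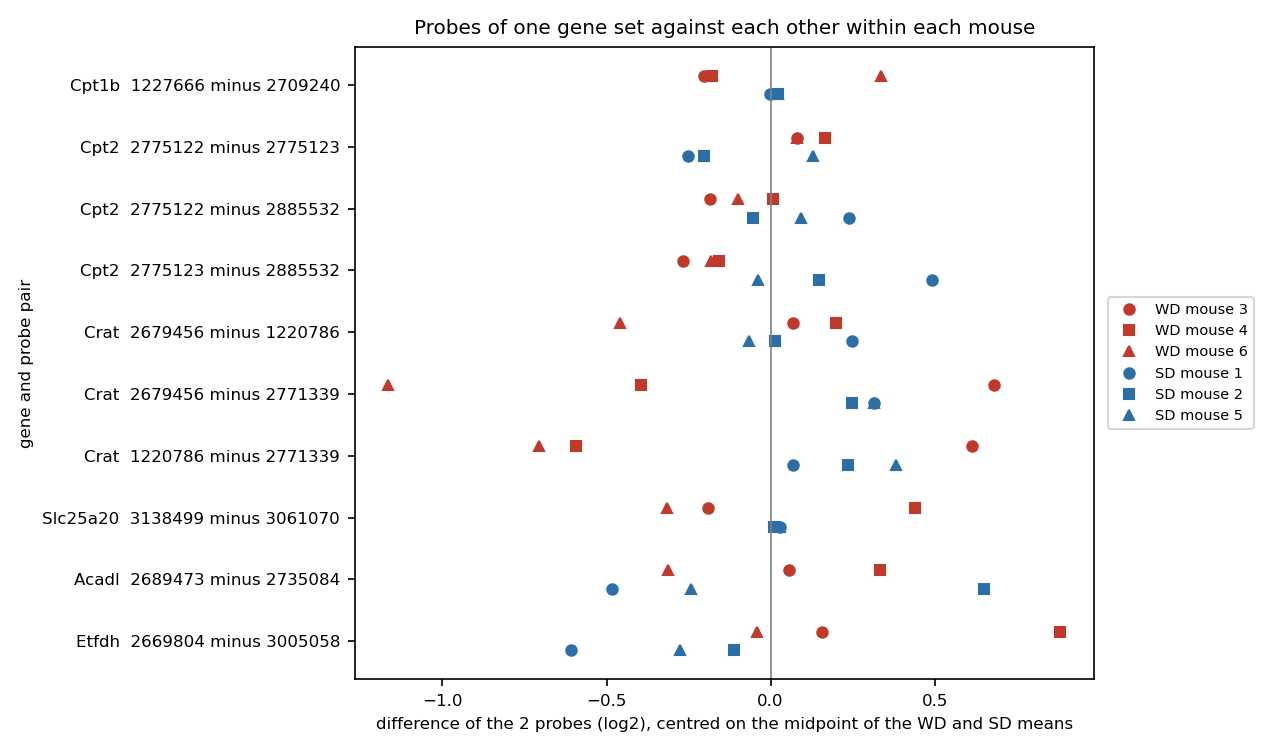
Difference between 2 tested probes of a gene in each mouse (log2, brighter minus dimmer), centred for each pair on the midpoint of the WD and SD means, with WD mice in red above SD mice in blue. The 3 WD points lie to the right of the 3 SD points for Etfdh and to the left of them for Cpt2 ILMN_2775123 minus ILMN_2885532, and overlap them in the other 8 pairs.

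With 1 probe standing for each gene (the brightest tested), 6 of the 8 genes were higher in WD testes and 2, Cpt1b and Slc25a20, were lower, with a median difference of 0.04. Over all 11264 genes tested, 51.7% were higher and the median was 0.01. The count of 6 did not hold when the arrays were scaled in another way, and it was 3 of 8 with median scaling and with the authors' deposited values. It also moved with single mice and the choice of probe. The count was 4 of 8 without SD mouse 1, and 5 of 8 without WD mouse 3 or WD mouse 4. With the mean of a gene's tested probes it was 5 of 8. By mouse, the median deviation of the 8 genes from the SD mean was 0.19, 0.04 and 0.02 in WD mice 3, 4 and 6, against -0.09, 0.05 and 0.03 in SD mice 1, 2 and 5. WD mouse 3 was thus the highest. It was also highest in the macrophage, Leydig cell, Sertoli cell, peritubular, skeletal muscle, spermatogonia and round spermatid markers. It was lowest in the spermatocyte markers (-0.23) and the elongating spermatid markers (-0.12). The part of other cells in these values was not tested.

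The wider pathway was looked at through 6 further lists, in each of which 0 genes passed the test in either direction. From each list the tested gene with the smallest p in each direction is named, so these genes are picked extremes. Over all tested probes, 10.2% did not overlap between diets and 5.13% had an unadjusted limma p under 0.05. Enzymes that continue mitochondrial oxidation and electron transfer were tested for 15 of 18 genes, of which 8 were higher and 7 lower in WD testes (median 0.05). Without WD mouse 3, 4 of the 15 were higher and the median was -0.07. The lowest p among those higher was that of Ivd, the isovaleryl-CoA dehydrogenase of leucine breakdown, which, like the acyl-CoA dehydrogenases above, hands its electrons on towards Etfdh. It read 8.59, 8.51 and 8.47 in WD mice, against 8.03, 8.22 and 8.30 in SD mice. All WD mice were above all SD mice, and the difference was 0.34 (interval 0.04 to 0.65, limma, unadjusted p = 0.0319 and adjusted p = 0.920). Hadh, the hydroxyacyl-CoA dehydrogenase of the matrix, had the lowest p among those lower, with 5.93, 5.19 and 5.77 in WD mice, against 6.37, 6.17 and 5.66 in SD mice (difference -0.44, limma adjusted p = 0.936). Its probe lay near background and was not detected in WD mouse 4. The difference was -0.22 without that mouse and -0.14 without background correction. Acadvl, the very-long-chain dehydrogenase, differed by 0.09 (interval -0.42 to 0.60), with opposite signs of its 2 tested probes.

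**Figure D5:**
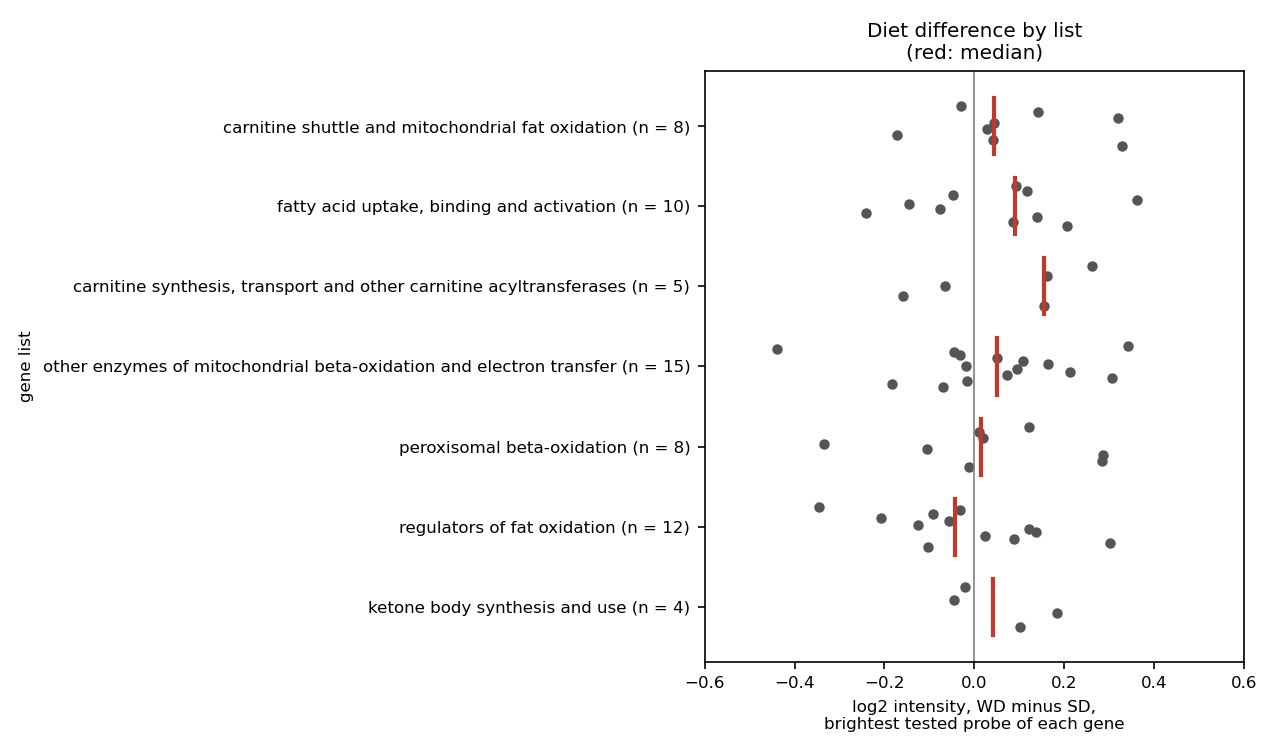
Difference between diets (log2, WD minus SD) of the brightest tested probe of each gene, for the 10 chosen genes and 6 further lists of fat metabolism, with the number of genes tested. Each point is a gene and the red bar is the median of its list. The medians lie between -0.04 and 0.16, and each list has genes on both sides of 0.

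Genes that bring fatty acids and carnitine to the shuttle also had values on both sides. Of the uptake and activation list, 10 of 15 genes were tested, 6 higher and 4 lower (median 0.09). Fabp3, a fatty acid binding protein, read 12.17, 11.59 and 11.30 in WD mice, against 11.37, 11.53 and 11.07 in SD mice (difference 0.36, limma adjusted p = 0.936). WD mouse 3 was highest, and without it the difference was 0.12. Acsl6, an acyl-CoA synthetase, differed by -0.15 (interval -0.47 to 0.18), and by -0.04 without WD mouse 3, with 2 of its 3 tested probes in this direction. Carnitine synthesis and transport had 5 of 10 genes tested, 3 higher and 2 lower (median 0.16). Single mice set this median, which was 0.018 without WD mouse 6, 0.052 without WD mouse 4 and 0.22 without WD mouse 3. Slc22a5, the plasma membrane carnitine transporter OCTN2, read 10.71, 10.65 and 10.49 in WD mice, against 10.09, 10.59 and 10.38 in SD mice, with overlap (difference 0.26, interval -0.11 to 0.64). The difference was 0.13 without SD mouse 1 and 0.33 without WD mouse 6. Of the 3 tested probes of Slc22a5, 2 were higher in WD mice.

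Peroxisomes, which shorten very long chains, were represented by 8 of 14 genes, 5 higher and 3 lower (median 0.02). Without WD mouse 3, 2 of the 8 were higher and the median was -0.06. The peroxisomal thiolase Acaa1a read 9.75, 9.54 and 9.56 in WD mice, against 9.38, 9.30 and 9.32 in SD mice. WD and SD mice did not overlap, with a difference of 0.28 (interval -0.01 to 0.58, limma adjusted p = 0.936). Acaa1a was named for the smallest p among the 5 higher genes. Decr2, the peroxisomal dienoyl-CoA reductase, differed by -0.34 (interval -0.80 to 0.13), and by -0.10 without background correction. Its 2 tested probes had opposite signs.

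Regulators of fat oxidation had 12 of 20 genes tested, 5 higher and 7 lower (median -0.04). Ppara, the fatty acid receptor that drives this pathway in liver, was detected on 0 arrays and its coactivator Ppargc1a on at most 1, so neither was tested. Sirt3, the mitochondrial deacetylase, read 11.16, 10.90 and 11.07 in WD mice, against 11.44, 11.41 and 11.31 in SD mice. All WD mice were below all SD mice, with a difference of -0.34 (interval -0.65 to -0.04, limma, unadjusted p = 0.0301 and adjusted p = 0.906). Sirt3 was named for the smallest p among the 7 lower regulators. Angptl4, an inhibitor of lipoprotein lipase and a known target of the PPAR receptors, differed by 0.30 (interval -0.25 to 0.85). Its difference was 0.11 without background correction, 0.12 without WD mouse 4 and 0.57 without WD mouse 6. Ketone body genes had 4 of 7 tested, 2 higher and 2 lower (median 0.04). Oxct2a, the CoA transferase of ketone use known from spermatids, differed by -0.04 (interval -0.36 to 0.27), and Oxct1, its form of other tissues, by 0.19 (interval -0.11 to 0.48), with opposite signs of its 2 tested probes.

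Markers of other cells that oxidise fat were looked at beside these genes. Of 7 skeletal muscle markers 2 were tested, and Acta1, Ckm, Myh4, Tnnt3 and Tnni2 were detected on 0 arrays. The 2 tested were Mylpf and Myl1, with means of 5.87 and 7.57 in WD testes, against 5.64 and 7.34 in SD testes. Of 7 adipocyte markers 2 were tested, with Plin1, Cidec and Ucp1 detected on 0 arrays and Lep on 1. The 2 tested were Adipoq, with a mean of 9.74 in WD testes and 9.89 in SD testes and detection on all 6 arrays, and Retn, with 6.07 in WD testes and 5.71 in SD testes. Probes of the testis genes Sycp3, Dmc1, Amh and Zbtb16 were likewise detected on 0 arrays, so an undetected marker does not show that a cell type is missing. The macrophage markers were higher in WD testes for 9 of 9 genes (median 0.43), their summed normalised level being 5254, 3089 and 2929 in WD mice 3, 4 and 6, against 2663, 2637 and 2493 in SD mice 1, 2 and 5. They were higher for 8 of 9 with WD mouse 3 left out (median 0.18). Leydig cell markers were higher for 7 of 9 (median 0.17), and for 4 of 9 without WD mouse 3 (median -0.0075). Sertoli cell markers were higher for 7 of 8 (median 0.15), and for 4 of 8 without it (median 0.014). Peritubular markers were higher for 4 of 4 (median 0.22, and 0.16 without WD mouse 3), and Myh11 among them had an adjusted p of 0.801 in limma, equal to the smallest over all genes tested. Endothelial markers were higher for 3 of 4 (median 0.35, and 0.35 without WD mouse 3). Spermatogonia markers were higher for 5 of 6 (median 0.11), and for 4 of 6 without WD mouse 3 (median 0.12). Round spermatid markers were higher for 4 of 6 (median 0.02), and for 3 of 6 without it (median -0.017). Spermatocyte markers were higher for 2 of 8 (median -0.14), and for 3 of 8 without it (median -0.06). For elongating spermatid markers the count was 0 of 7 (median -0.06), with equal means of Prm1, and 2 of 7 without WD mouse 3 (median -0.04). In all these lists 0 genes passed the test. Of the elongating spermatid and spermatocyte lists, 7 of 8 and 8 of 10 genes were tested. For macrophage markers it was 9 of 11, and for the whole array 11264 of 19057 gene symbols. These counts alone do not identify the tissue. The part of these cell types in the values of the pathway was not tested.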

How the data were processed

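Illumina MouseWG-6 v2.0 arrays were used, 1 for the testis RNA of each of 3 WD and 3 SD mice. The deposited intensity values, exported from GenomeStudio (version not given in the sources used here), were neither background-subtracted nor scaled. The deposited detection column grows with intensity and was taken as a score, from which the detection p is 1 minus the value. The authors' deposited log2 values could be rebuilt from the intensities by taking log2, then subtracting from each array its upper quartile and from each probe 1 value common to all arrays, with a residual standard deviation over arrays of at most 0.000152. The origin of that value stays unknown, while scale and direction are settled. Their medians were -0.012, 0 and 0.00760 in WD mice 3, 4 and 6, against -0.0172, -0.0564 and 0.00185 in SD mice 1, 2 and 5.

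Intensities were corrected and quantile normalised with neqc of limma 3.58.1 (R 4.3.3), where the detection p-values give the background and 16 is added before taking log2. Probes with a detection p under 0.05 on at least 3 of 6 arrays were tested (19763 probes) with lmFit and eBayes, WD minus SD, two-sided. The study's methods name limma and a false discovery rate. Here p-values were adjusted over all tested probes after Benjamini and Hochberg, with 0.05 as the threshold. Each p sets a difference against the spread between mice, and the number of arrays limits the precision.

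Gene symbols came from the platform annotation (34885 probes with 1 symbol, 18 with several, 10378 with none). Of these, 34807 matched a table of GRCm38.p6 genes by gene number, with 0 symbols changed and all 23 probes of the pathway matched. Promoter windows are from RefSeq, GRCm38.p6, in which 8 of the 10 genes had an entry. The brightest tested probe stood for a gene. All 10 genes were named, and from each further list the gene with the smallest p in each direction, plus Cpt1c, Acadvl, Ppara and Ppargc1a. The genes and lists were chosen with earlier results of these data known. The fit was tested on simulated data. Alternatives were other background corrections, scalings, detection filters, a variance trend, mice 5 and 6 (whose column names, unlike the other 4, carry no number) as a block or left out, each mouse left out and the mean of a gene's probes.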

Additional observations from a re-analysis of the deposited data

How the results depend on the processing

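Of 253 values of the 16 probes under 16 alternatives, 235 kept their direction and 18 were reversed, and 10 probes never changed sign. The 235 include values that could not turn. The detection filters, the variance trend and the block of mice 5 and 6 leave each difference as it was and change only its p. Under the alternatives 0 values passed the adjusted threshold (lowest limma adjusted p 0.597). No paired analysis was possible because no mouse number occurs in both diets. The count of genes higher in WD testes, 6 of 8, was 3 with median scaling and 3 with the authors' deposited values, which moved the median of all tested probes by -0.05 and -0.01. These scalings gave -0.0552 and -0.0562 for Cpt2 ILMN_2775122, -0.0338 and -0.0345 for Crat ILMN_2679456, and -0.0217 and -0.0162 for Acadm. The median difference of the genes, 0.04, was 0.12 without mice 5 and 6, where Slc25a20 ILMN_3138499 was 0.0568 and ILMN_3061070 was -0.0469. With the mean of its tested probes Etfdh was -0.0128. The causes were not tested. The gap between both probes of Etfdh kept its direction in all alternatives run, from 0.38 to 0.88, and that of Cpt2 from -0.53 to -0.26. These pairs were picked because they did not overlap between diets in the same mice, so the kept direction is no separate support. The variance trend and the block could not alter the gaps.

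With each mouse left out in turn, the median lay between 0.01 and 0.10, Cpt2 ILMN_2775122 between -0.0359 and 0.0901, Crat ILMN_2679456 between -0.0446 and 0.10, Slc25a20 ILMN_3138499 between -0.0793 and 0.0469 and ILMN_3061070 between -0.12 and 0.22, Acadm between -0.0930 and 0.13, Acadl ILMN_2735084 between -0.0081 and 0.50, Oxct2a between -0.12 and 0.0192, and Acadvl between -0.0824 and 0.29. Over all tested probes, the count with an unadjusted p under 0.05, 1013, was 1572 without WD mouse 6, 1567 without mice 5 and 6 and 766 without SD mouse 1.

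With 3 mice per diet, the half-width of the intervals was at least 0.30 for every tested probe of the pathway. The probes of Cpt1a and Hadha, near background, were not tested. Some tested probes also lay near background, such as Crat ILMN_2771339, detected on 4 arrays, and Acadl ILMN_2735084, detected on 5.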
